A study of Bos taurus with 6 samples.

Results

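The genes described here carry lactate and pyruvate through the cell: lactate dehydrogenase, the plasma membrane transporters of lactate, and the steps by which pyruvate enters the mitochondrion and the pyruvate dehydrogenase complex. They are a list of 10 genes, drawn up by function and symbol with earlier results of these data known (LDHA, LDHB, SLC16A1, SLC16A3, SLC16A7, BSG, PDHA1, PDHB, PDK1 and MPC1), and no measured value enters the rule. Of the 10, 9 were found among the 18862 genes of the files, and SLC16A7 was not analysed here. The RNA came from bovine 8-cell embryos made by in vitro fertilization, with 3 control libraries and 3 libraries of embryos kept in 200 pmol/L GSKA from fertilization on, which inhibits the enzyme activity of LDHA and is used to lower histone lactylation. Both groups had the same amount of the solvent DMSO, and the zona pellucida was removed before lysis. Each library is 1 sample of embryo RNA made with a SMART-Seq v4 kit, without separate cells, and the sources used here do not state how many embryos went into a library. The labels give the source as female and the cell type as embryo, and the study's methods call the 3 repeats of each group biological replicates. Neither says whether a replicate was a separate culture or fertilization, so each p-value rests on the spread between the libraries at hand.

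Lactate dehydrogenase interconverts pyruvate and lactate with NADH and NAD as partners. It is a tetramer of A and B subunits, where the A form is best known from tissues that make lactate and the B form from tissues that burn it. Monocarboxylate transporters of the SLC16 family carry lactate and pyruvate across the plasma membrane together with a proton, and basigin brings some of them to the surface. Pyruvate that is not reduced to lactate passes the mitochondrial pyruvate carrier and is turned into acetyl-CoA by pyruvate dehydrogenase, which pyruvate dehydrogenase kinases switch off by phosphorylation. Cleavage stage embryos are known for their use of pyruvate and lactate before they turn to glucose, and lactate is also the source of the lactyl group on histones.

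Values are FPKM, fragments scaled to transcript length and to all mapped fragments of the library, so levels can be set side by side between genes of different length. Read numbers cannot be had from FPKM, which leaves sequencing depth unknown and counting error without an estimate. Per library, FPKM summed to between 497035 and 581839 over 14295 to 15370 genes above 0. Control replicate 1 stood apart with 13.2% of its FPKM on mitochondrially encoded genes, against 5.31% to 7.26% in the other libraries. All 14 embryo and oocyte markers found (of 16 listed) were above 0 in every library, where KPNA7, ZSCAN4 and GDF9 are examples. Their summed levels ran from 2600 to 3860 FPKM (controls) and from 3410 to 4710 FPKM (GSKA). Of the 14, 13 had a higher mean after GSKA, beside 57.2% of all genes tested. KHDC3L (47.7 to 81.0 FPKM in the controls, 148 to 206 FPKM after GSKA) passed the test described below (adjusted p = 0.0348 from limma). It was the 1 marker of the 14 that passed, beside 0.357% of all genes tested. Of 12 cumulus cell markers 10 were found and 7 were above 0 in each library, and their summed level ran from 38.9 to 54.1 FPKM (controls) and from 70.1 to 80.7 FPKM (GSKA). STAR (20.1 to 40.3 FPKM in the controls, 43.5 to 50.6 FPKM after GSKA) and TNFAIP6 (4.31 to 11.3 and 15.2 to 16.6 FPKM) lay higher in each GSKA library than in each control, while HAS2 (3.84 to 8.94 FPKM over all 6 libraries) and VCAN (0.406 to 3.40 FPKM) overlapped. The other 6 markers found were at or below 3.40 FPKM, among them CYP19A1, at or below 0.131 FPKM, and LHCGR, at 0.00715 FPKM in control replicate 1 and listed at 0 elsewhere. Sperm markers (7 of 10 found) summed to 4.05 to 5.22 FPKM in control libraries and to 7.60 to 11.2 FPKM in GSKA libraries. Most of the control sum was ODF2, at 3.96 to 4.35 FPKM there and at 2.14 to 4.27 FPKM after GSKA. TNP2 (0 to 0.872 FPKM in the controls, 1.31 to 5.13 FPKM after GSKA) lay higher in each GSKA library. TNP1, PRM1 and ODF1 were listed at 0 in every control and above 0 in at least 1 GSKA library. Blood markers (6 of 10 found) summed to 8.14 to 15.2 FPKM in control libraries and to 2.33 to 7.82 FPKM in GSKA libraries. The part of these markers in the results below was not tested. In RNA of whole embryos, fewer cells and less RNA per cell cannot be told apart.

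None of the 8 members tested passed the test between GSKA and control, and LDHA came nearest. A gene entered the test if 3 or more libraries had it at 1 FPKM or above, which left 10654 genes for limma (Benjamini-Hochberg adjustment) on log2(FPKM + 1). Fold changes are given on that log scale, on which low genes appear to change less than they do. Of all genes tested, 0.357% passed at an adjusted p under 0.05, and 0 of the 8 members did (lowest adjusted p = 0.339 from limma, for LDHA). At an unadjusted p under 0.05 stood 13.4% of all genes (9.4% higher and 4.03% lower after GSKA), and 1 member, LDHA, was among them, on the higher side. The groups did not overlap in 19.4% of all genes (12.9% higher and 6.45% lower after GSKA), and in 0 of the 8 members. The median log2 fold change of the members was 0.15, beside 0.09 for all genes tested, and 6 of the 8 had a higher mean after GSKA, where 57.2% of all genes did.

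LDHA encodes the A subunit of lactate dehydrogenase, the target of GSKA, and lies on chromosome 29 from 26290893 to 26301350 on the minus strand (ENSBTAG00000008683, in the coordinates of the authors' files, for which the sources used here name no genome build). Its FPKM was 231, 307 and 523 in control replicates 1, 2 and 3 and 577, 540 and 443 in GSKA replicates 1, 2 and 3. It was the most abundant member in every library, 187th of all genes by mean FPKM. Control replicates 1 and 2 lay below all GSKA libraries, while control replicate 3 lay within their range, so the groups overlapped. Control libraries had a mean of 354 ± 151 FPKM and GSKA libraries of 520 ± 69.3 FPKM (SD, n = 3). The log2 fold change was 0.63 (standard error 0.275, 95% interval 0.03 to 1.22) and did not pass (adjusted p = 0.339 from limma). The interval is not adjusted for the number of genes tested, and corresponds to a 1.02-fold to 2.34-fold higher level after GSKA. Control replicate 1, which had the largest mitochondrial share, also had the lowest LDHA value, and without it the log2 fold change was 0.37 (adjusted p = 0.537 from limma). Without control replicate 3 it was 0.95 (adjusted p = 0.0831).

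LDHB, the gene of the B subunit on chromosome 5 from 88544523 to 88562783, had an FPKM of 80.7, 69.9 and 99.2 in the controls and 80.8, 86.4 and 103 after GSKA. The group ranges overlapped, with GSKA replicates 1 and 2 between control replicates 1 and 3. Control replicate 2 was the lowest library and GSKA replicate 3 the highest. Its log2 fold change was 0.12 (standard error 0.235, 95% interval -0.39 to 0.63, adjusted p = 0.869 from limma), an interval from 0.764-fold to 1.54-fold. It was 0.0014 without control replicate 2, 0.02 without GSKA replicate 3 and 0.25 without control replicate 3 (adjusted p = 0.999, 0.989 and 0.626 from limma). Of the FPKM of the lactate dehydrogenase genes LDHA, LDHB and LDHC, LDHA held 71.9%, 80.2% and 82.6% in the controls and 86.4%, 83.6% and 79.7% after GSKA. LDHC, the testis form known from spermatogenesis, lies beside LDHA on chromosome 29 and held 1.53% to 3.02%, and the assignment of fragments between such similar genes is uncertain. The A subunit gene thus had the larger part of the transcript level in each of the 6 libraries.

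**Figure D1:**
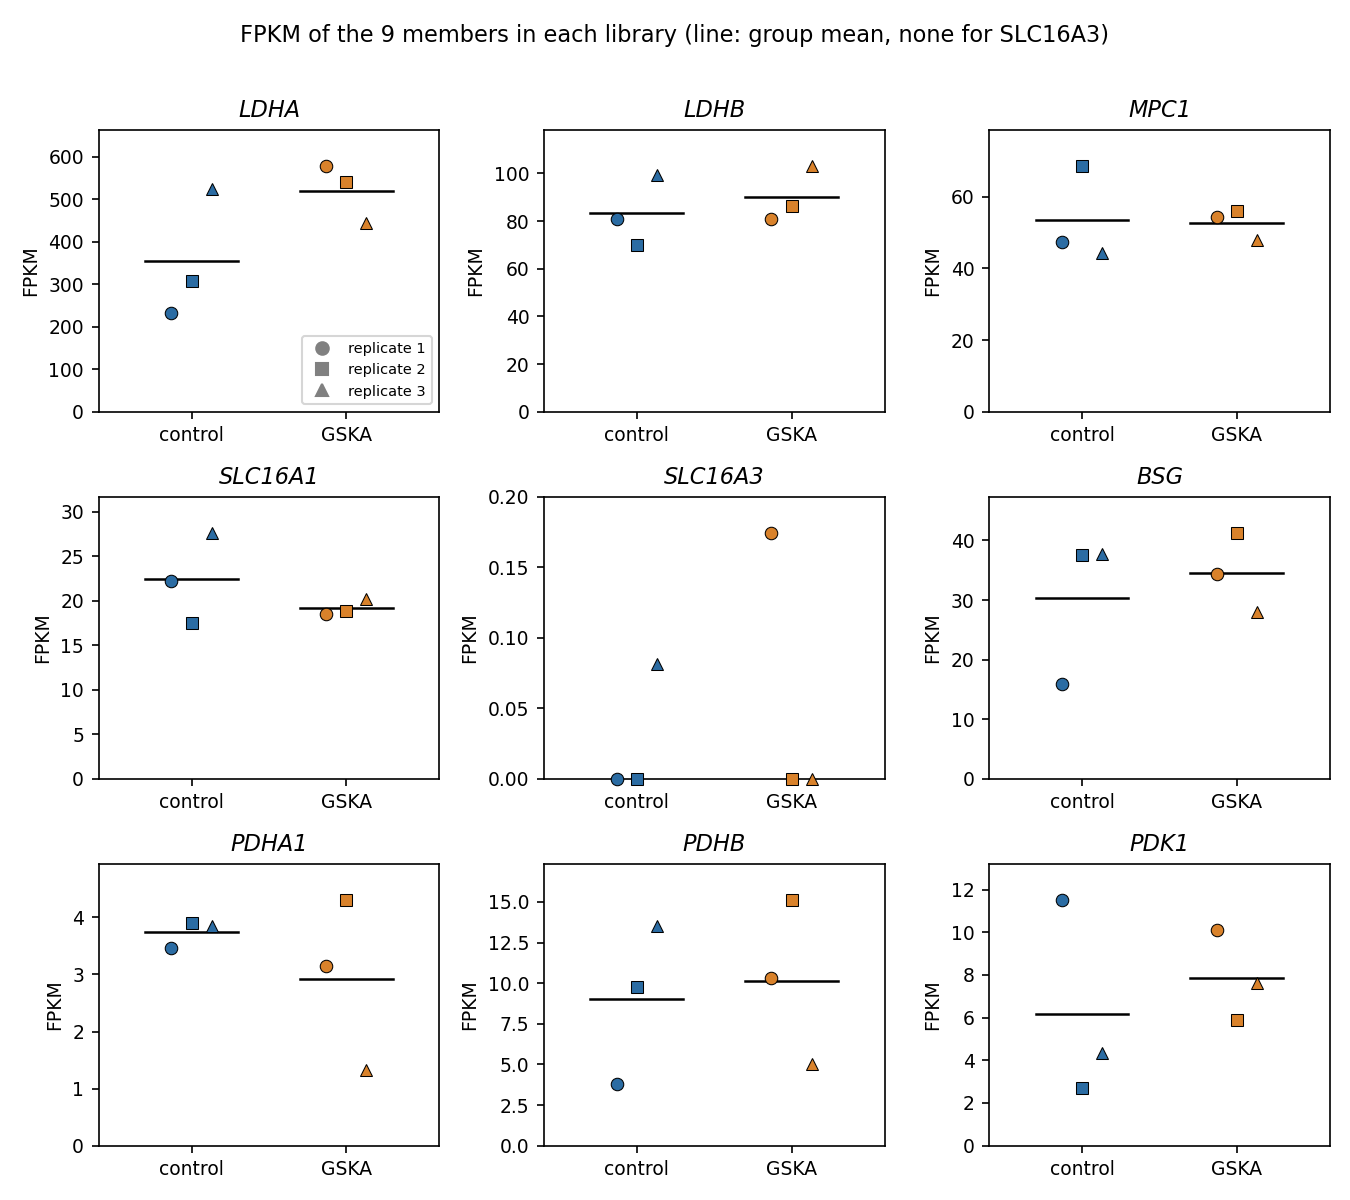
FPKM of the 9 members found, with 1 panel per gene, a linear axis from 0, and 1 point per library (control blue, GSKA orange, the symbol giving the replicate). The line is the mean of 3 libraries and is left out for SLC16A3, which was listed at 0 in 4 libraries; in all 9 panels the groups overlap.

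Transport of lactate rested on SLC16A1 among the transporter genes found. SLC16A1 encodes the monocarboxylate transporter MCT1, which moves lactate and pyruvate in either direction, and lies on chromosome 3 from 30382285 to 30411742. Its FPKM was 22.2, 17.5 and 27.6 in the controls and 18.5, 18.9 and 20.2 after GSKA. The GSKA libraries lay close together, inside the range of the controls, with a log2 fold change of -0.19 (standard error 0.280, 95% interval -0.80 to 0.41, adjusted p = 0.814 from limma). Without control replicate 3, the highest library, it was -0.04, and without control replicate 2, the lowest, it was -0.35 (adjusted p = 0.967 and 0.580 from limma). Of the summed FPKM of 12 SLC16 genes found, SLC16A1 made up between 61.7% and 76.5% in a library.

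SLC16A3 on chromosome 19 from 50634317 to 50642204 encodes MCT4, the low-affinity transporter known for lactate export from glycolytic cells. It was listed at 0 in control replicates 1 and 2 and in GSKA replicates 2 and 3, at 0.0811 FPKM in control replicate 3 and at 0.174 FPKM in GSKA replicate 1. It did not reach the minimum in any library and was not tested. An FPKM listed at 0 does not show that the transcript was absent, as the depth is unknown.

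BSG on chromosome 7 from 43201562 to 43208656 encodes basigin, the membrane glycoprotein that MCT1 and MCT4 need to reach the cell surface. It had an FPKM of 15.9, 37.5 and 37.7 in the controls and 34.3, 41.2 and 28.0 after GSKA. Control replicate 1 was the low library, and the other controls lay within the GSKA range. The log2 fold change was 0.26 (standard error 0.340, 95% interval -0.48 to 0.99, adjusted p = 0.789 from limma). Its direction turned without control replicate 1, at -0.14 (adjusted p = 0.855 from limma).

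MPC1 encodes a subunit of the mitochondrial pyruvate carrier, through which pyruvate crosses the inner membrane, and lies on chromosome 9 from 101357585 to 101370280. It had an FPKM of 47.3, 68.5 and 44.4 in the controls and 54.4, 55.9 and 47.9 after GSKA. The GSKA values fell between the lowest and the highest control. Its log2 fold change of 0.01 (standard error 0.253, 95% interval -0.54 to 0.55, adjusted p = 0.997 from limma) was the one nearest to 0 among the members tested, and its sign was not stable, being negative under each of 4 scalings (-0.12 to -0.0042) and without 4 of the 6 libraries in turn. The interval ran from 0.688-fold to 1.47-fold.

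PDHA1 and PDHB, the subunits of the enzyme that decarboxylates pyruvate, lay far below LDHA and LDHB in level. Not every subunit of the complex did: DLD, the dihydrolipoamide dehydrogenase shared with other complexes and named here after its values were seen, was at 91.1, 146 and 258 FPKM in control libraries and at 173, 140 and 104 FPKM in GSKA libraries, above LDHB in each. PDHA1, the X-linked alpha subunit that carries the phosphorylation sites (chromosome X from 123763234 to 123786124), had an FPKM of 3.47, 3.91 and 3.85 in the controls and 3.15, 4.30 and 1.32 after GSKA. The controls were nearly level, with a highest to lowest ratio of 1.13, whereas the GSKA libraries differed by a ratio of 3.26, with GSKA replicate 3 the low one. The log2 fold change was -0.35 (standard error 0.402, 95% interval -1.22 to 0.51, adjusted p = 0.746 from limma), and without GSKA replicate 3 it was -0.02 (adjusted p = 0.994).

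PDHB, the beta subunit of the same enzyme (chromosome 22 from 42918413 to 42958633), had an FPKM of 3.82, 9.74 and 13.5 in the controls and 10.3, 15.1 and 5.01 after GSKA. Within each group the libraries differed by more than 3-fold, with ratios of highest to lowest of 3.53 and 3.02. The log2 fold change was 0.18 (standard error 0.464, 95% interval -0.82 to 1.19, adjusted p = 0.9 from limma). It turned to -0.27 without control replicate 1 and to -0.14 without GSKA replicate 2 (adjusted p = 0.811 and 0.961 from limma). In the files the span of PDHB, introns included, shares 34386 bases with that of PXK, a gene on the other strand with 7.26 to 18.2 FPKM, and the span of PDHA1 shares 394 bases with that of MAP3K15. The SMART-Seq v4 kit does not mark strand, so where exons of such a pair overlap their fragments cannot be told apart, and whether exons overlap was not tested.

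PDK1 on chromosome 2 from 24026650 to 24069014 encodes a kinase that switches pyruvate dehydrogenase off and is a known target of the hypoxia response. It had an FPKM of 11.5, 2.68 and 4.32 in the controls and 10.1, 5.89 and 7.63 after GSKA. The highest and the lowest of all 6 values were both controls, which differed by a ratio of 4.30 against 1.72 among the GSKA libraries. GSKA and control differed by a log2 fold change of 0.48 (standard error 0.447, 95% interval -0.49 to 1.45, adjusted p = 0.685 from limma). It was 0.98 without control replicate 1, the library at 11.5 FPKM, and 0.10 without control replicate 2 (adjusted p = 0.310 and 0.945 from limma, unadjusted 0.0249 and 0.830).

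**Figure D2:**
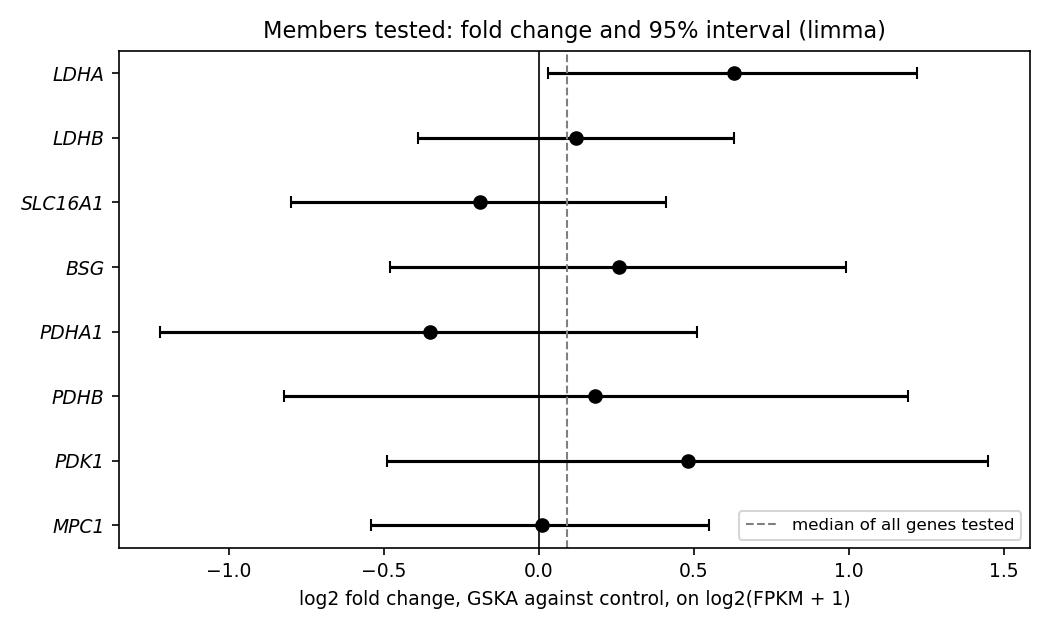
Log2 fold change of the 8 members tested, GSKA against control on log2(FPKM + 1), with the 95% interval of limma as bars and the median of all genes tested (0.09) as a dashed line. The intervals of 7 members include 0 and that of LDHA runs from 0.03 to 1.22, before any adjustment for the number of genes.

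By mean FPKM over the 6 libraries the members stood in the order LDHA (437), LDHB (86.6), MPC1 (53.1), BSG (32.4), SLC16A1 (20.8), PDHB (9.59), PDK1 (7.03), PDHA1 (3.33) and SLC16A3 (0.0425). From LDHA to BSG each gene lay above the next in all 6 libraries with no overlap of their ranges, as did SLC16A1 above PDHB and PDHA1 above SLC16A3. The neighbours BSG and SLC16A1 had overlapping ranges and kept their order in 5 of 6 libraries, and control replicate 1 had them the other way round. PDHB lay above PDK1 in 4 of 6 libraries and PDK1 above PDHA1 in 5 of 6, so the ranges of PDHB and PDK1, and of PDK1 and PDHA1, were not separated.

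The libraries of the control group varied more than those of the GSKA group for most members. On the log2(FPKM + 1) scale the SD was larger in the controls for 7 of the 8 members tested, where this held for 68.1% of all genes. For LDHA the SD was 0.595 in the controls and 0.198 after GSKA, for SLC16A1 0.315 and 0.0619, for BSG 0.688 and 0.272, and for PDK1 0.907 and 0.346. PDHA1 was the exception, at 0.0729 and 0.613.

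Ratios within a library depend little on the scaling between libraries, and 4 were compared, with p-values adjusted over them. Ratios are of FPKM, and tests are on log2 ratios of (FPKM + 1). LDHA was 2.87, 4.40 and 5.27 times LDHB in the controls and 7.15, 6.25 and 4.31 times after GSKA. GSKA replicate 3 lay within the range of the controls. On the log2 scale the ratio was 2.01 ± 0.450 and 2.52 ± 0.376 (SD, n = 3 each), a difference of 0.51 (exact permutation test, two-sided, p = 0.3, adjusted p = 0.4). With 3 libraries a group this test cannot go below 0.1, so no ratio could pass.

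PDHA1 stood at 0.909, 0.402 and 0.286 of PDHB in the controls and at 0.305, 0.284 and 0.263 after GSKA. Control replicate 1 was the library in which both subunits were nearly equal. The difference in the log2 ratio was -0.54 (exact permutation p = 0.3, adjusted p = 0.4), and it was -0.12 without control replicate 1. PDK1 was 3.32, 0.685 and 1.12 times PDHA1 in the controls and 3.21, 1.37 and 5.78 times after GSKA, where control replicate 1 lay among the GSKA values. The log2 difference was 0.83 (exact permutation p = 0.3, adjusted p = 0.4). SLC16A1 was 1.40, 0.466 and 0.733 times BSG in the controls and 0.539, 0.459 and 0.721 times after GSKA, with a log2 difference of -0.45 (exact permutation p = 0.4, adjusted p = 0.4) that was -0.05 without control replicate 1. In each of the 4 ratios the groups overlapped.

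**Figure D3:**
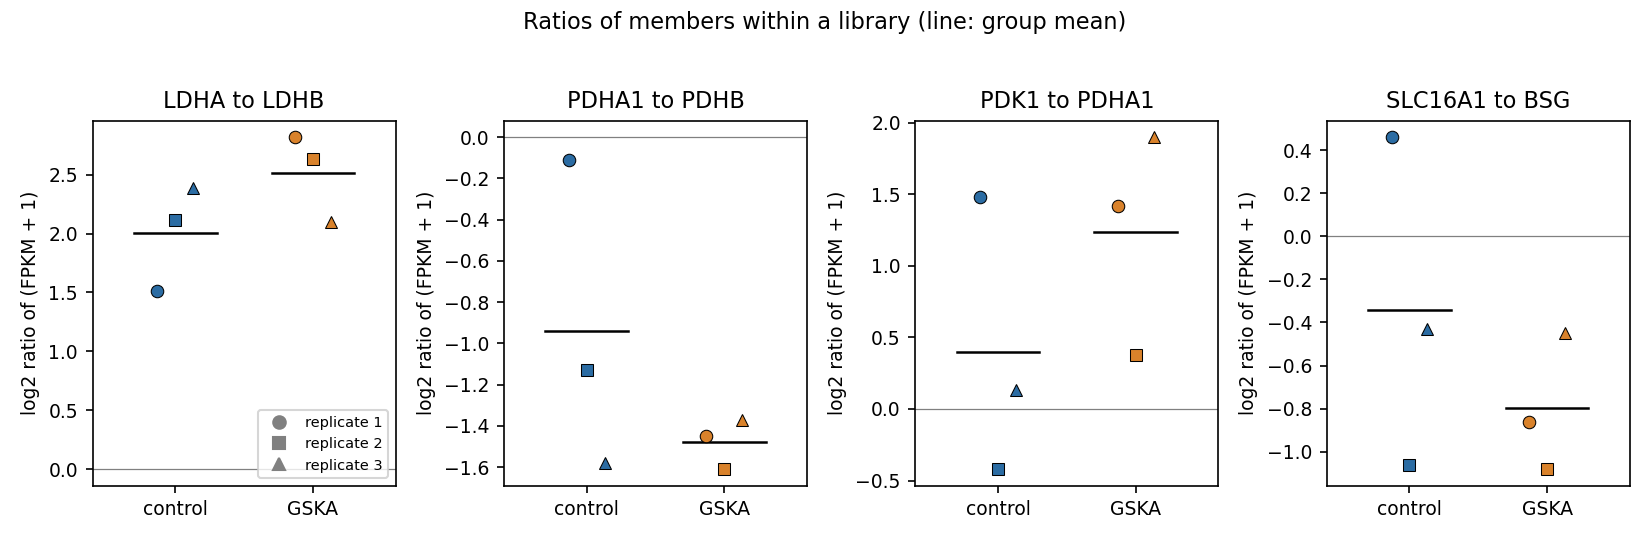
Log2 ratio of (FPKM + 1) between members of the same library, with 1 point per library (control blue, GSKA orange, the symbol giving the replicate) and a line at the mean of 3 libraries. Control replicate 1 is the lowest library in the first panel and the highest library in the second and the fourth, and the groups overlap in all 4 panels.

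**Figure D4:**
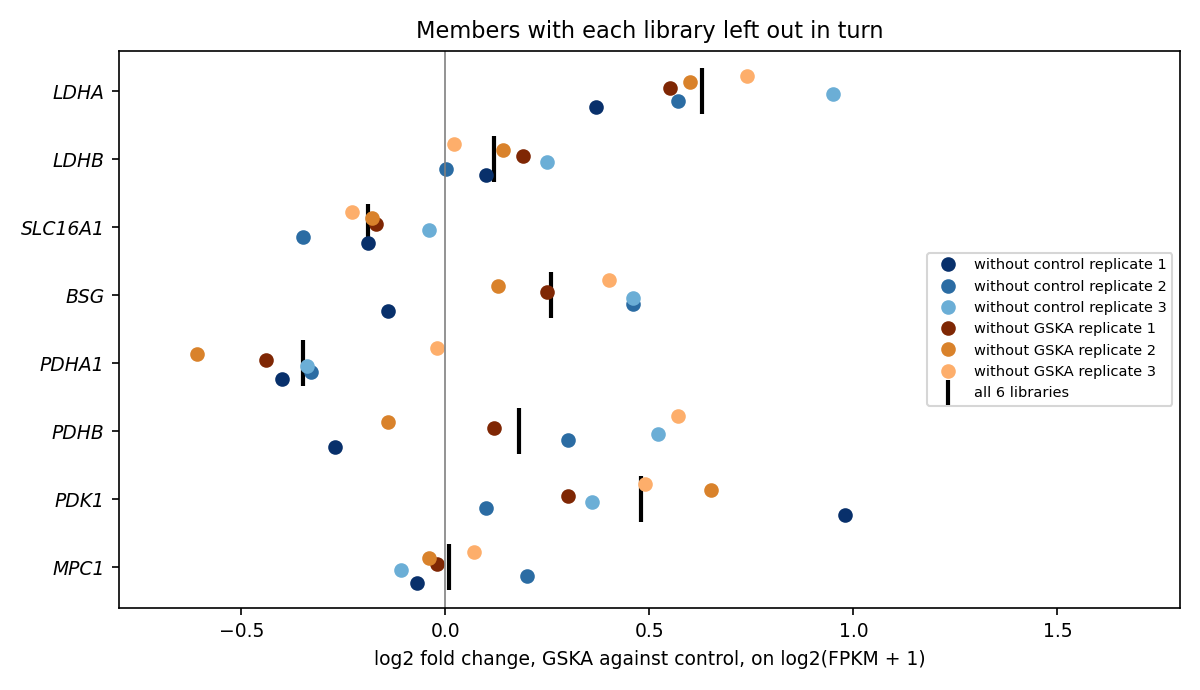
Log2 fold change of the 8 members tested with all 6 libraries (black bar) and with each library left out in turn (points, blue for controls and orange for GSKA). LDHA moves between 0.37 and 0.95 and stays above 0, PDK1 moves between 0.10 and 0.98, and BSG, PDHB and MPC1 cross 0.

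The other genes of these pathways were taken from 8 lists with 96 genes in all, of which 67 were tested. None passed (0 of 67, beside 0.357% of all genes; lowest adjusted p = 0.177 from limma), and 3 (MDH1, GPD1L and ADM) were higher and 1 (ALDOC) lower at an unadjusted p under 0.05. The groups did not overlap for 23.9% of them, beside 19.4% of all genes tested, and their median log2 fold change was 0.11, beside 0.09. The nearest partners of PDK1 and PDHA1 are the other kinases and the phosphatases that reverse them. PDK3 was the most abundant kinase gene, with 57.9% to 74.6% of the FPKM of PDK1 to PDK4, against 10.6% to 31.7% for PDK1. PDK3 was at 21.0, 18.8 and 18.1 FPKM in control libraries and at 27.2, 24.6 and 32.2 FPKM in GSKA libraries. PDK2 was at 2.89, 3.72 and 5.18 FPKM and at 6.96, 7.15 and 5.68 FPKM. Each GSKA library lay above each control for both kinases, with log2 fold changes of 0.51 and 0.64 that did not pass (adjusted p = 0.435 and 0.464 from limma). PDP2, the phosphatase gene with 86.7% to 97.7% of the FPKM of PDP1 and PDP2, lay lower in each GSKA library than in each control, at 61.9, 67.5 and 78.0 FPKM against 79.3, 105 and 92.7 FPKM (log2 fold change -0.41, adjusted p = 0.477 from limma). LIPT2, which takes part in attaching the lipoyl cofactor, was at 0.70 with overlapping groups (adjusted p = 0.378). Among the 12 genes of this list tested, 2 were higher and 1 lower without overlap. That is 25.0% of the list, beside 19.4% of all genes tested (12.9% higher and 6.45% lower). The median of the list was -0.09.

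Beside LDHA and LDHB, the list of other lactate enzymes had 3 tested genes (median log2 fold change 0.02), with LDHC at 0.48, the glyoxalases HAGH at -0.16 and GLO1 at 0.02. Of other monocarboxylate transporters and their partners 4 of 15 were tested (median -0.15), with NPTN, which encodes the basigin relative neuroplastin, at -0.73 and lower without overlap, SLC16A10 at -0.23, SLC16A12 at -0.07 and SLC16A13 at 0.02. Enzymes that use pyruvate or acetyl-CoA otherwise had a median of 0.06 over 9 genes, with pyruvate carboxylase PC at -0.63, GPT2 at 0.31, ACSS1 at 0.22 and citrate synthase CS at 0.19. These are log2 fold changes, and adjusted p lay between 0.454 and 0.993 for these genes. In glycolysis, upstream of LDHA, the median over 12 genes was 0.10, with the aldolase ALDOC at -0.99, TPI1 at -0.67, HK1 at 0.68 and PGK1 at 0.54 (adjusted p = 0.177, 0.458, 0.403 and 0.387 from limma).

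Shuttles that, like lactate dehydrogenase, dispose of cytosolic NADH had the higher mean after GSKA in 9 of 9 genes tested, where 57.2% of all genes did, with a median log2 fold change of 0.27 and none past the test. MDH1, the cytosolic malate dehydrogenase, had an FPKM of 10.2, 19.8 and 26.3 in the controls and 40.0, 30.6 and 32.6 after GSKA (log2 fold change 0.93, adjusted p = 0.252 from limma). GPD1L was at 16.1, 27.7 and 23.7 FPKM and at 39.8, 45.0 and 37.7 FPKM (0.86, adjusted p = 0.205). In 3 of these genes, MDH1, GPD1L and GOT2, each GSKA library lay above each control, as in 12.9% of all genes tested. Control replicate 1 was the lowest library in all 3. That library was also the lowest for MDH2, GOT1 and SLC25A11, but not for SLC25A12, SLC25A13 or GPD2. MDH2, GOT1, SLC25A12, SLC25A13 and GPD2 had small log2 fold changes, of 0.11, 0.23, 0.03, 0.27 and 0.16. GOT2 and SLC25A11 were at 0.52 and 0.70 (adjusted p = 0.376 and 0.428 from limma).

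PDK1 and LDHA are textbook targets of the hypoxia-inducible factor and of MYC. The median over 8 tested genes of oxygen sensing and MYC was 0.36, with MYC at 0.56, EGLN1 and EGLN2, which mark the factor for destruction, at 0.41 each, and EPAS1 at -0.39 (adjusted p = 0.588, 0.629, 0.612 and 0.662 from limma). Of 10 other hypoxia targets the median was -0.07, with log2 fold changes of 1.06 for ADM, 0.75 for VEGFA, -0.72 for KDM3A and -0.43 for the glucose transporter SLC2A1 (adjusted p = 0.209, 0.390, 0.616 and 0.540 from limma). These targets went both ways, with 4 means higher and 6 lower.

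**Figure D5:**
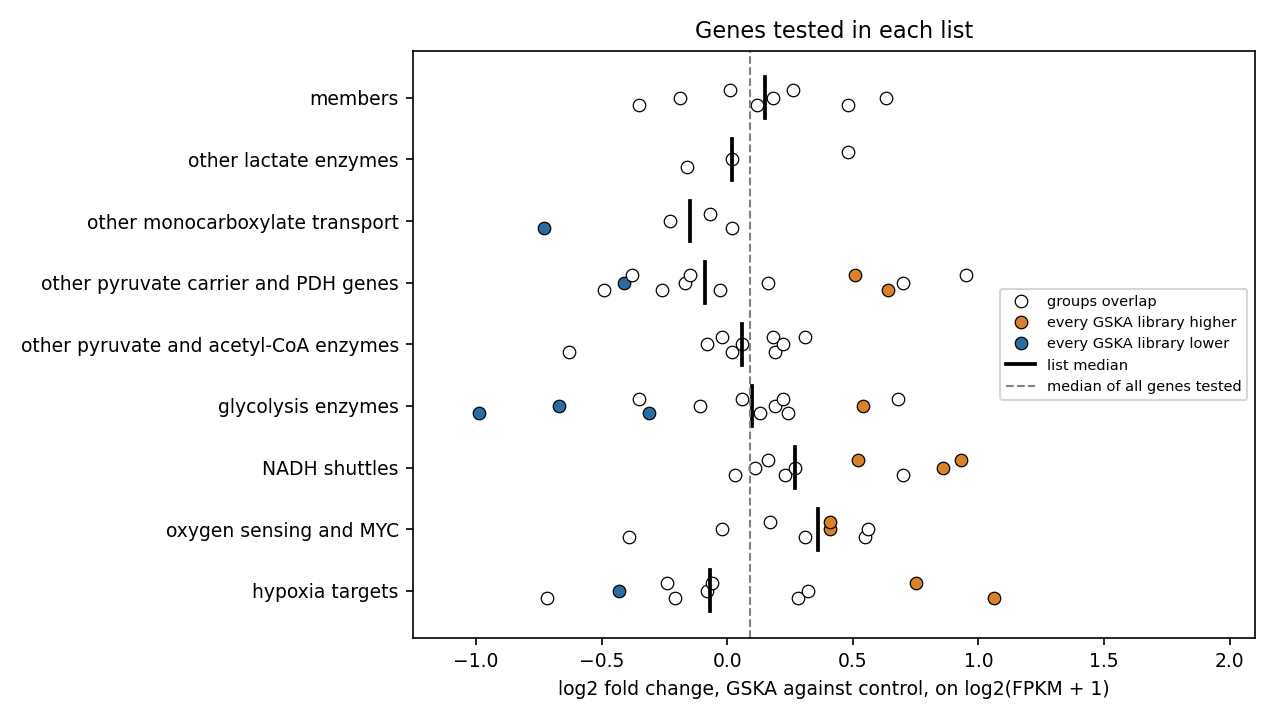
Log2 fold change of each tested gene in the members and the 8 other lists, 1 point per gene, filled where the 3 GSKA libraries all lie above (orange) or below (blue) the controls. Black bars are list medians, from -0.15 for other monocarboxylate transport to 0.36 for oxygen sensing and MYC, and the dashed line is the median of all genes tested (0.09); all members are open points.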

How the data were processed

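The 6 libraries of 8-cell embryos, 3 control and 3 GSKA, were grouped by their sample titles, and the dose was taken from the study's methods. The authors deposited FPKM values, 1 file per library, and for making them the submitters list cutadapt 1.9, StringTie 1.3.4d, HISAT2 2.0.4 and edgeR. The sources used here name no genome build. A deposited table of the authors' own comparison (fold, log2 fold, p and q of the genes they called) was not used. Without counts no count test could be run, although the study's methods use one.

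GSKA was compared with control by limma 3.58.1 (R 4.3.3) on log2(FPKM + 1). The model held the group alone, with an intensity trend in the variance, and p-values were adjusted by Benjamini-Hochberg over the 10654 genes that reached 1 FPKM in 3 or more libraries. Ratios within a library were compared by exact permutation tests. The members and gene lists were chosen with earlier results of these data known. Genes named are all members and up to 4 genes with the smallest p in each of 8 lists. Cell markers, overlapping genes, the PDK and PDP shares, DLD and the remaining NADH shuttle genes were named besides. In 5 simulations of GSKA against control with 10654 genes, limma recovered 14.4% of the genes given a log2 change of 1 and 73.6% of those given 2, with 12 false calls among 52270 unchanged genes. Changes were given only to genes with a mean log2(FPKM + 1) above 3, so recovery was not tested for lower genes such as PDHA1. Alternatives covered the pseudocount, filter, scaling, replicate block, variance trend and each library left out. No sequences are given.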

Additional observations from a re-analysis of the deposited data

How the results depend on the processing

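No member and no other pathway gene of the 8 lists passed in any of the 17 alternatives (lowest adjusted p of a member 0.0831 from limma, for LDHA without control replicate 3), and LDHA, SLC16A1, PDHA1 and PDK1 kept their direction in all alternatives that tested them. PDHA1 was not tested with an FPKM minimum of 5. The log2 fold change turned negative for LDHB after quantile normalization (-0.0014), for BSG without control replicate 1 (-0.14), and for PDHB without control replicate 1 (-0.27) and without GSKA replicate 2 (-0.14). For MPC1 it was -0.12 after quantile normalization, -0.10 after median scaling, -0.0042 after TPM scaling, -0.05 after scaling without mitochondrial genes, and -0.07, -0.11, -0.02 and -0.04 without control replicates 1 and 3 and GSKA replicates 1 and 2. With the replicate number as a block, which cannot change a fold change in this balanced design, no member passed (LDHA adjusted p = 0.415 from limma). The count of all genes called, 38, was 15 with a pseudocount of 0.1, 2 with 0.01, 16 with an FPKM minimum of 0.1, 0 with no filter (limma, with 1664 genes at an unadjusted p under 0.05), 21 after median scaling, 19 with the replicate block, 7 without the intensity trend, and 4 to 34 with a library left out. The cause was not tested. Deviations of same-numbered libraries correlated at -0.082, 0.136 and -0.125, and those of differently numbered libraries at -0.119 to 0.176. With so few libraries this cannot decide whether the numbers pair them. With 1 library left out, the log2 fold change reached up to 0.46 for BSG, 0.57 for PDHB and 0.20 for MPC1, and the differences in log2 ratio ran from 0.26 to 0.72 for LDHA to LDHB, -0.86 to -0.12 for PDHA1 to PDHB, 0.42 to 1.38 for PDK1 to PDHA1 and -0.81 to -0.05 for SLC16A1 to BSG.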
